A study of Mus musculus with 4 samples.

Results

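The 9 genes described here encode transcription factors of the Sox, Twist, Snail and homeodomain families that are known from embryonic mesenchyme, dermis, hair follicle or vessels. They were taken as Sox11, Sox4, Sox9, Sox18, Twist1, Twist2, Snai2, Prrx1 and Zfhx3, by exact gene symbol in the platform annotation, a set chosen by knockout to wildtype ratios already seen on these same arrays, so their ratios are a description with no test. They were measured by 19 of the 24833 probe sets, 11 on the first array type and 8 on the second, out of 13674 named genes in all.

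The mice were newborns (postnatal day 0) of strain FVB/N, either loricrin knockout or wildtype, and RNA came from whole skin. Loricrin is the main protein of the cornified envelope, the hardened shell of the outermost epidermal cells. Each genotype had 2 arrays, 1 on each of 2 array types with different probe sets, so every ratio compares 1 knockout array with 1 wildtype array and has no replicate error. The labels give no allele, no sex and no number of animals, and do not say whether the array called a replicate held RNA of other animals.

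Sox proteins bind DNA through a high mobility group box, and the family is split into groups of close relatives. Sox4 and Sox11 belong to group C, which acts in embryonic progenitors of nerve and mesenchyme; Sox9 belongs to group E and is known for cartilage and for the stem cells of the hair follicle; Sox18 belongs to group F and acts in blood and lymph vessels. Twist1 and Twist2 are basic helix-loop-helix proteins of mesenchyme, and Twist2 is also called Dermo1 for its expression in the dermis. Snai2, or Slug, is a zinc finger repressor that keratinocytes use in migration, Prrx1 is a homeodomain protein of limb and craniofacial mesenchyme, and Zfhx3 is a large protein with both zinc fingers and homeodomains.

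Promoter sequences are shown for the 3 genes with a ratio past 2-fold and for Sox4, the relative of Sox11 whose ratios ran the other way. RefSeq windows on build GRCm38.p6, from 250 bases before to 50 after 1 annotated start, were found for 6 of the 9 genes. Capitals mark matches on either strand. The E-box of helix-loop-helix proteins such as Twist was searched as CANNTG and its Snail form as CACCTG, core motifs of Sox proteins as ACAAAG and also as ACAATG, and the boxes near many starts as CCAAT and as TATAAA. The windows are chr12:27342669-27342968 (minus strand) for Sox11, chr1:91801211-91801510 (plus strand) for Twist2, chr8:108714394-108714693 (plus strand) for Zfhx3 and chr13:28953650-28953949 (minus strand) for Sox4.
Sox11: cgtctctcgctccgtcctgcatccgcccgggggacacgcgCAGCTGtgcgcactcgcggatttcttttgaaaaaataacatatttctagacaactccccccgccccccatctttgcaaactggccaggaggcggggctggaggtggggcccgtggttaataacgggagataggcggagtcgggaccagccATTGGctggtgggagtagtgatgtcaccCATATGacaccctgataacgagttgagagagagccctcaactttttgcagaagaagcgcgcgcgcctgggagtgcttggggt
Twist2: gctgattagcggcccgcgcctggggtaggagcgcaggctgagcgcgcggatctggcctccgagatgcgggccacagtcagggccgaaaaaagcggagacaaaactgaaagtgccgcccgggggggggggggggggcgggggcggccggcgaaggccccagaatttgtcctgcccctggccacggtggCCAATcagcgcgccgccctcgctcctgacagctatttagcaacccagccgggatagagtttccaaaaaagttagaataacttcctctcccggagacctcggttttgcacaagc
Zfhx3: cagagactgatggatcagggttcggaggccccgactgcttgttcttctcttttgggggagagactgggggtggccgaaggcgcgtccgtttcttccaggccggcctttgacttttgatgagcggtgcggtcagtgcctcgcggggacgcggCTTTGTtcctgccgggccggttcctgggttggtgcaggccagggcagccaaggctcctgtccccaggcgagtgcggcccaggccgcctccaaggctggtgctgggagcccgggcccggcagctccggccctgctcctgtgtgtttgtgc
Sox4: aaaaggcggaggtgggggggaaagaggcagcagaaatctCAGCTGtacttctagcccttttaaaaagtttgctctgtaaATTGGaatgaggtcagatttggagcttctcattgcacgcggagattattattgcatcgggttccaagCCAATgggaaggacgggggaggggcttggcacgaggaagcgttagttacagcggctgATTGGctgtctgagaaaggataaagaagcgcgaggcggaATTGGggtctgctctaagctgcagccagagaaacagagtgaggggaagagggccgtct

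The Sox11 and Sox4 windows each held the letters CAGCTG, beginning at -210 and -211 from the start, and Sox11 held a second CANNTG match, CATATG, at -32. Neither Twist2 nor Zfhx3 held CANNTG, which 72.3% of 32851 promoter windows of this length contain. CCAAT, found in 37.4% of windows, occurred 4 times in Sox4 and 1 time each in Sox11 and Twist2. The reverse complement of ACAAAG stood at -99 in Zfhx3, a motif found in 18.7% of windows. None of the 6 windows held ACAATG (12.6% of windows) or CACCTG (20.2%), and Twist1 alone held TATAAA (13.6%). A match is a description of letters and no sign of binding.

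Values are MAS5 signals in arbitrary units, which set the arrays of one probe set against each other and cannot compare the level of different genes. Signals under a floor (77.6 for the first type, 133.0 for the second) were raised to it before the ratio was taken, because lower signals have no reliable order. A ratio with 1 array at the floor is therefore a bound, written "at least". Scaling on bacterial spike-in probe sets, whose own mean log2 ratios were -0.69 and -0.65 on the first and second types, raises every ratio measured in both arrays by that much, so directions are relative to the typical probe set. A probe set is called higher or lower in knockout when it differs by 2-fold or more. As a measure of scatter between probe sets, log2 ratios of different probe sets for the same gene had a pooled SD of 0.413 on the first type (838 genes) and 0.373 on the second (1057 genes). Only probe sets above the floor in both arrays entered it, so the SD does not cover ratios with an array at the floor.

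**Figure D1:**
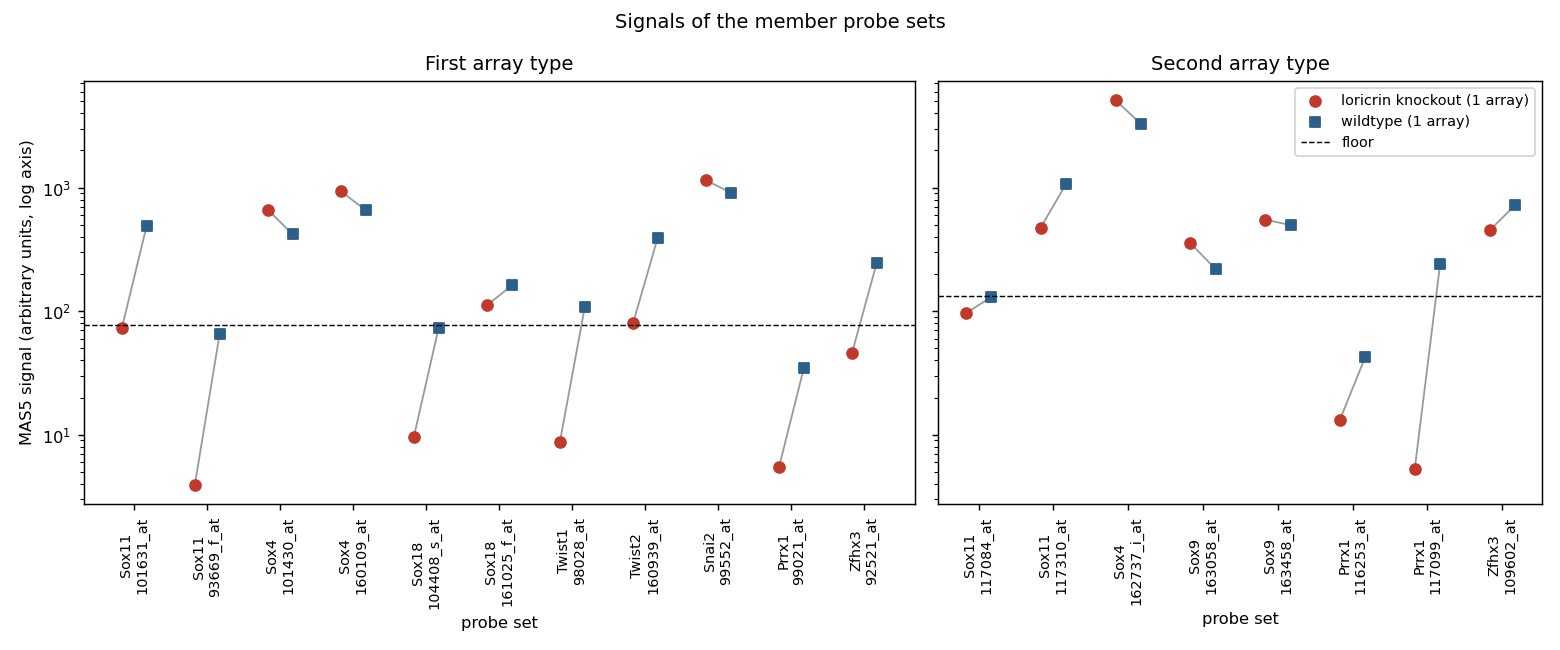
MAS5 signal (log axis) of each of the 19 probe sets, with the knockout array as a circle and the wildtype array as a square; the dashed line is the floor, 77.6 on the first array type and 133.0 on the second. Sox11, Twist2 and Zfhx3 lie below wildtype in knockout, while the 3 Sox4 probe sets lie above it.

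The arrays were checked first. On the first type loricrin read 2013 in knockout against 41225 in wildtype, 20.5-fold lower, while its other probe set lay below the floor in both arrays. Xist, the RNA of the inactive X chromosome, read 857 in knockout against 24.7 in wildtype on that type. On the second type Xist read 129.2 in knockout against 12.5 in wildtype, both under the floor. The Y-linked Eif2s3y read 42.7 in knockout against 1071 in wildtype, and Kdm5d, also Y-linked, read 27.8 and 12.2 in knockout against 470.4 and 976 in wildtype on its 2 second-type probe sets. The first-type Kdm5d probe set lay under the floor in both arrays. The knockout arrays thus carried a female and the wildtype arrays a male pattern, on the second type by Kdm5d alone. Sex and genotype cannot be told apart in any ratio below. The epidermal part of the tissue label was checked with Krt1 and Krt10, keratins of differentiating epidermis. On the first type they read 18713 and 18479 in knockout, against 26637 and 25557 in wildtype. Krt5 and Krt14, also listed as keratinocyte markers, lay under the floor in both arrays there. This check used no marker of dermis. In whole skin, fewer cells of a type and less RNA per cell cannot be told apart.

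Of the 11 member probe sets on the first type, 3 were at least 2-fold lower in knockout, where 1.22% of all 12422 probe sets were, and none was 2-fold higher (0.869% of all). On the second type 1 of 8 was lower (1.84% of all 12411) and none higher (1.48% of all). These counts are fixed in part by how the genes were chosen and nothing is read from them. Including smaller ratios, 8 of the 19 probe sets lay below 0, 6 above 0, and 5 were under the floor in both arrays. The median log2 ratio was 0 on both types, as over all probe sets.

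Among the group C factors, Sox11 was lower in knockout on both array types. Its brighter first-type probe set read 72.8 in knockout, under the floor, and 490.4 in wildtype. That is at least 6.32-fold lower (log2 ratio -2.66). The brighter second-type probe set read 475 in knockout against 1073 in wildtype, both well above the floor, and was 2.26-fold lower (log2 ratio -1.17). The other Sox11 probe sets gave no ratio, with 3.94 in knockout against 65.5 in wildtype on the first type and 96.2 in knockout against 130.4 in wildtype on the second. Scaling on bacterial spike-in probe sets brought the second-type ratio to -0.52, under 2-fold, and using the floor as a pseudocount brought it to -0.99.

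Sox4, the close relative, had positive log2 ratios on all 3 of its probe sets, each under 2-fold. It read 662 in knockout against 418 in wildtype on the first (log2 ratio 0.66), and 935 in knockout against 657 in wildtype on the second (0.51). The third, on the second array type, read 5097 in knockout against 3280 in wildtype (0.64). It carries a suffix (i) and is the only Sox4 probe set on that type. These 3 ratios lay within 0.16 of each other, and each was larger than the pooled SD between probe sets of a gene on its array type. That SD comes from probe sets read on the same arrays. It does not measure differences between animals or arrays, which all 3 ratios could share. Relative to spike-in probe sets all 3 passed 2-fold, at 1.35, 1.20 and 1.29. The remaining group C gene, Sox12, read 2013 in knockout against 2050 in wildtype (log2 ratio -0.03).

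Sox9 was measured on the second type only. One probe set read 356 in knockout against 218 in wildtype (log2 ratio 0.71), the other 550.4 in knockout against 498 in wildtype (0.14). Neither passed 2-fold, although the first stood at 1.36 under spike-in scaling, and the log2 ratios lay 0.56 apart. Sox18 read 112 in knockout against 161 in wildtype on one first-type probe set (log2 ratio -0.53, and 0.15 under spike-in scaling). Its other probe set was under the floor in both arrays, at 9.65 in knockout against 73.7 in wildtype. Both Sox18 probe sets carry a suffix for sequence shared with other transcripts, so their signal is uncertain.

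Twist2 was lower in knockout. Its single probe set, on the first type, read 79.5 in knockout, barely above the floor, and 394 in wildtype, which is 4.96-fold lower (log2 ratio -2.31). With the floor at the 60th percentile the log2 ratio was -0.73, under 2-fold. Twist1 read 8.80 in knockout against 107.5 in wildtype, a bound of at least 1.39-fold (log2 ratio -0.47) because the wildtype signal itself lay close to the floor. Under a 20th percentile floor that bound was -2.42.

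Snai2 read 1147 in knockout against 910.4 in wildtype (log2 ratio 0.33), a difference smaller than the scatter between probe sets of a gene, and 1.02 under spike-in scaling, past 2-fold. Prrx1 was dim. One second-type probe set read 5.31 in knockout against 242.5 in wildtype, at least 1.82-fold lower (log2 ratio -0.87), a bound that does not show whether 2-fold was reached. That bound was -2.47 with a 20th percentile floor and 0 with a 60th. Its other probe sets were under the floor in both arrays, at 5.47 in knockout against 34.6 in wildtype on the first type and 13.2 in knockout against 42.8 in wildtype on the second. Zfhx3 read 45.9 in knockout against 247.6 in wildtype on the first type, at least 3.19-fold lower (log2 ratio -1.67). On the second type it read 450.04 in knockout against 721 in wildtype, a log2 ratio of -0.68 that did not pass 2-fold. The first-type ratio of Zfhx3 was -0.06 under a 60th percentile floor, and the second-type ratio -0.03 under spike-in scaling.

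**Figure D2:**
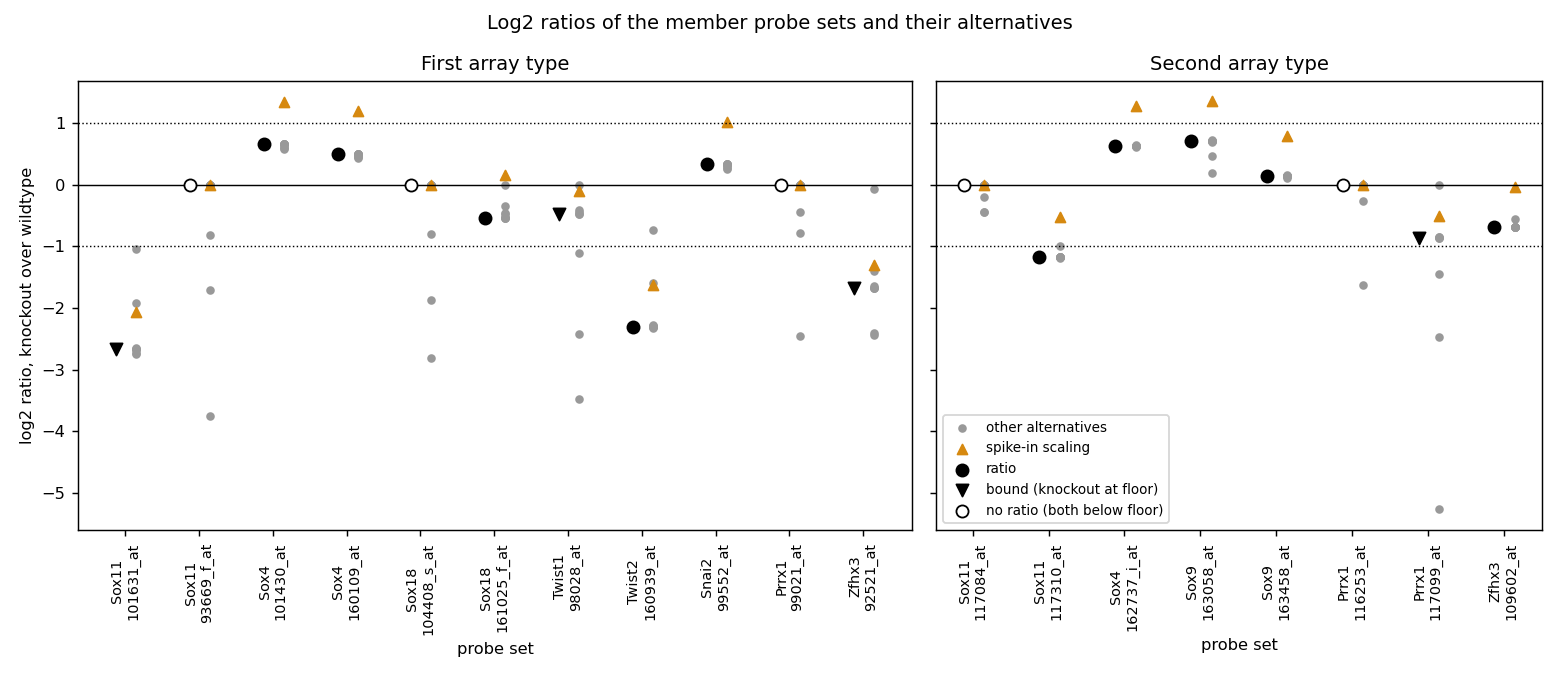
Log2 ratio of knockout over wildtype for each probe set (black circles; triangles pointing down are bounds with knockout at the floor; open circles have no ratio), with the values under 9 other scalings and floors beside it; dotted lines mark 2-fold. Sox11, Twist2 and Zfhx3 on the first type stay below 0 under each alternative, from -1.04, -0.73 and -0.06 downwards, and the 3 Sox4 probe sets stay above 0, from 0.44 upwards.

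On the first type the members past 2-fold had a knockout signal at the floor or just above it, whereas Sox4 and Snai2, with ratios above 0, were well above the floor in both arrays.

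**Figure D3:**
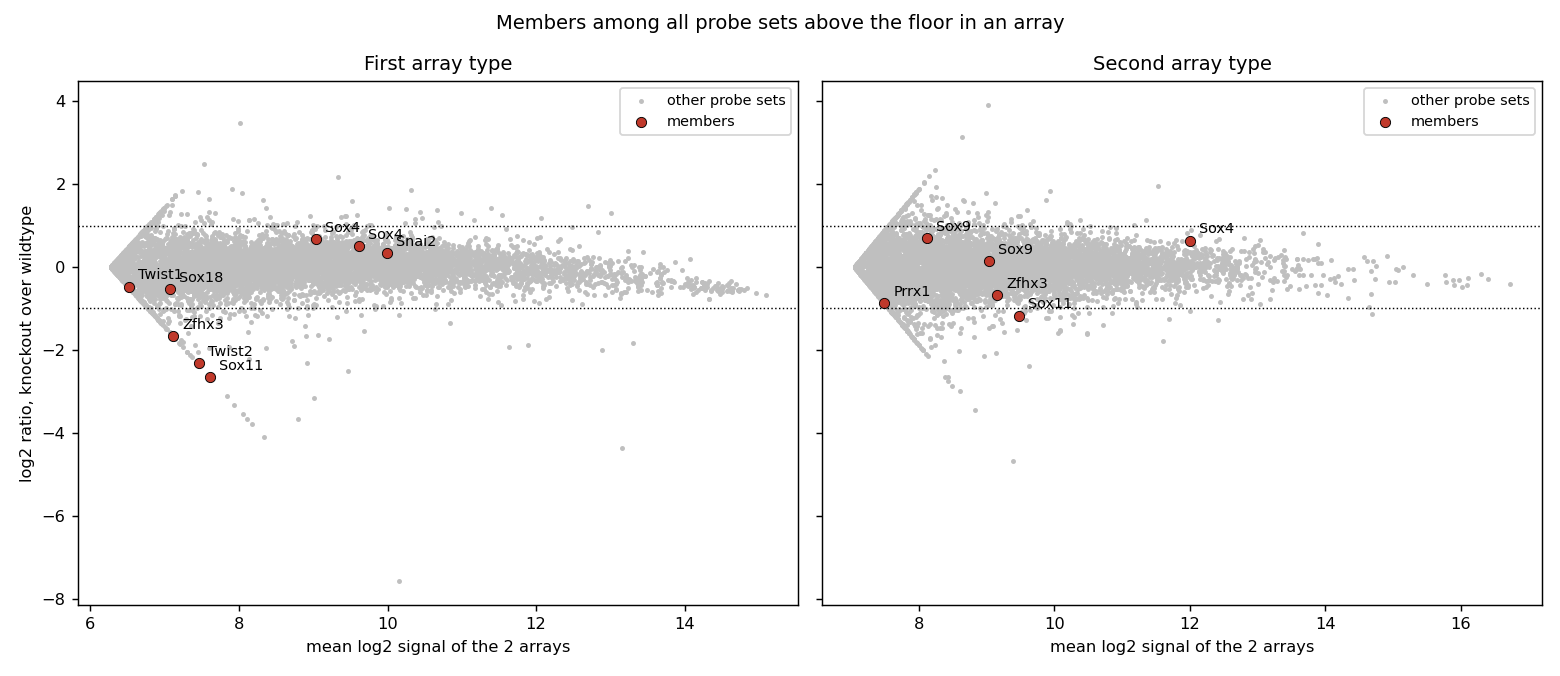
Log2 ratio of knockout over wildtype against the mean log2 signal of the 2 arrays for every probe set above the floor in an array (grey; first type 7904, second type 8142), with members in red and labelled. Sox11 at -2.66 and Zfhx3 at -1.67 on the first type lie on the edge formed by probe sets whose knockout signal was raised to the floor, and Twist2 at -2.31 lies just beside it.

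Sox11, Sox4, Prrx1 and Zfhx3 had probe sets on both array types, and 3 of them were above the floor on both. For each gene the probe set of highest mean signal was taken per type. Sox11 stood at -2.66 or lower on the first and at -1.17 on the second type, Zfhx3 at -1.67 or lower and -0.68, and Sox4 at 0.51 and 0.64, so all 3 kept their sign. Among the 1251 genes above the floor on both types 56.8% did so. With bounds counted at the floor, 2 of these genes, or 0.16%, were 2-fold lower on both types: Sox11 and Esf1, a ribosome biogenesis gene. The members were chosen by ratios already seen on these arrays, so nothing is read from their place in either share.

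**Figure D4:**
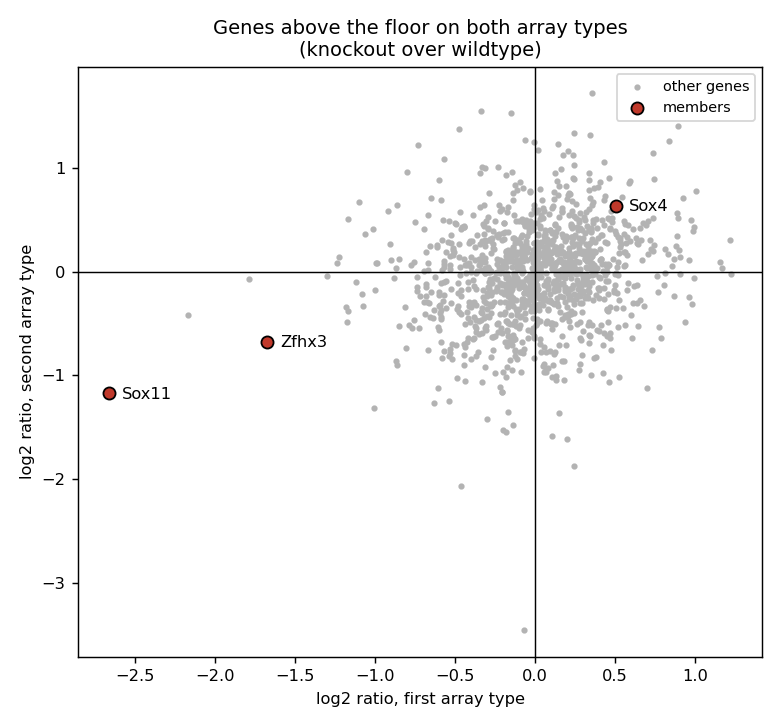
Log2 ratio of knockout over wildtype on the second array type against that on the first for the 1251 genes above the floor on both (grey), with members in red. Sox11 (-2.66, -1.17) and Zfhx3 (-1.67, -0.68) fall in the lower left and Sox4 (0.51, 0.64) in the upper right.

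Genes with the most similar pair of ratios were sought among the same 1251 genes, by the distance between pairs over 2 array types, with bounds taken at the floor. For Sox11 this gave the zinc finger gene Repin1, Zfhx3, the collagen gene Col5a2, Zfp932 and Esf1, and for Zfhx3 it gave Zfp932, Repin1, Rgs3, the Wnt receptor gene Fzd2 and Col5a2. The first-type ratios of Sox11, Zfhx3 and Repin1 and the second-type ratios of Col5a2, Rgs3 and Fzd2 are bounds, so these distances and their order are set in part by the floor. For Sox4, measured in all 4 arrays, the genes were Cggbp1, the chromatin remodelling gene Smarcc1 (distance 0.09), Lef1 (0.09), Hipk2 (0.12) and Abcb10. Cggbp1 and Abcb10 had a second-type wildtype signal under the floor, so theirs are no measured distances. Lef1, a transcription factor of the Wnt pathway in hair follicles, read 683 in knockout against 505 in wildtype on the first type and 1399 in knockout against 865 in wildtype on the second.

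Further transcription factors, of the Sox, helix-loop-helix and homeodomain families and of others active in dermis (forkhead, Runx, Gli, Nfi and more), were read from lists drawn up with earlier results of these arrays known. Of 71 such genes on the first type, 38 were above the floor in an array, 5 were at least 2-fold lower in knockout and none higher, or 7.04% lower where 1.37% of all 8251 named genes were (0.824% of all were higher). On the second type 1 of 26 was lower, 3.85% where 2.08% of 7542 genes were (1.64% were higher). Those 5 were the homeodomain genes Msx1, Shox2, Six2 and Prrx2 and the helix-loop-helix inhibitor Id2. Msx1, a factor of limb, tooth and craniofacial mesenchyme, read 26.2 in knockout against 339.6 in wildtype, at least 4.38-fold lower. Prrx2, the close relative of Prrx1, read 32.7 in knockout against 183 in wildtype, at least 2.36-fold lower. Shox2 and Six2 were at least 3.16-fold and 2.54-fold lower. All 4 homeodomain genes were at the floor in knockout, and none passed 2-fold with the floor at the 60th percentile. Prrx2 and Six2 also missed it under spike-in scaling, at -0.87 and -0.98.

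Id2, which blocks the partners of Twist-type proteins, was bright enough to be measured in both arrays. It read 302 in knockout against 943 in wildtype, 3.12-fold lower (log2 ratio -1.64), and -0.96 under spike-in scaling. Id1 and Id3 stood at -0.93 and -0.59, and Id3 at 0.10 under spike-in scaling. Id4 had a ratio above 0, with 2096 in knockout against 1632 in wildtype (log2 ratio 0.36, and 1.05 under spike-in scaling). Id1, Id3 and Id4 were picked with their values in view. Hand2, a helix-loop-helix factor of heart, limb and neural crest mesenchyme, read 192 in knockout against 389.6 in wildtype on the second type, 2.03-fold lower, with a log2 ratio of -0.37 under spike-in scaling. None of the other Sox genes above the floor, 4 by first-type and 3 by second-type arrays, passed 2-fold. Sox7 and Sox13 read 772 and 767 in knockout and 791 and 725 in wildtype, and Sox10, of group E, 1175 in knockout against 1045 in wildtype on the second type. Of the forkhead, Gli, Nfi and related factors, 14 of 26 on first-type and 12 of 17 on second-type arrays were above the floor in an array, and none of these passed 2-fold, with Mef2a at 0.58 and Creb3l1 at 0.02 on the first type and Foxp1 at 0.02 and Nfib at 0.19 on the second, although a second probe set of Trps1 there stood at -1.22.

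**Figure D5:**
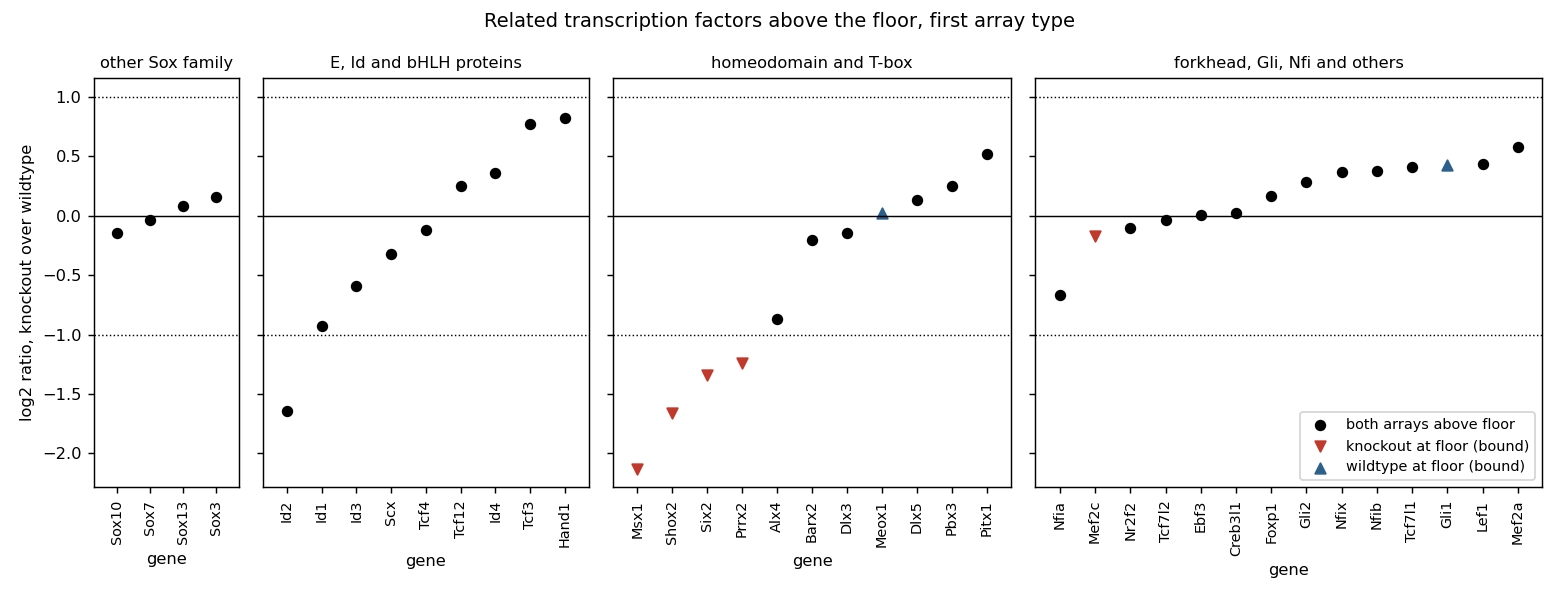
Log2 ratio of knockout over wildtype on the first array type for the 38 related factors above the floor, in 4 lists and ordered by ratio within each; triangles are bounds and dotted lines mark 2-fold. Msx1 (-2.13), Shox2 (-1.66), Six2 (-1.34), Prrx2 (-1.24) and Id2 (-1.64) lie past 2-fold below 0, and no factor lies past it above 0.

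Genes linked to these factors were read against the same shares of all named genes, 1.37% lower and 0.824% higher on the first type, 2.08% and 1.64% on the other. Of 10 genes tied to group C Sox factors on the first type, 9 were above the floor and 1 was lower, the growth factor gene Mdk (70.2 in knockout against 911 in wildtype, at least 11.7-fold lower), and none higher. Of 11 Snail, Zeb and epithelial-mesenchymal transition genes 5 were above the floor and none of these passed 2-fold, with the adhesion genes Cdh1 at -0.39 and Epcam at 0.47. Of 10 cartilage genes linked to Sox9, 4 were above the floor on the first type and none of these passed 2-fold, while Col9a1 had log2 ratios of 0.70 there and -1.12, a bound, on the second.

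Markers of the cell types that carry these factors were read beside them. Of 18 dermal fibroblast markers on the first type, 15 were above the floor, 6 were at least 2-fold lower in knockout and none higher (1.37% and 0.824% of all named genes), and their median log2 ratio was -0.25 against 0 over all named genes. Their summed signal was 13379 in knockout against 18346 in wildtype. A summed signal, here and for the lists below, is weighted to the brightest genes and gives no common direction. Col3a1, Fap, Lum and Pdgfra were at the floor in knockout only, and Cdh11, Dpt and Pdgfrb in both arrays. The collagen gene Col1a1 read 172 in knockout against 1545 in wildtype, a log2 ratio of -3.17, and the receptor gene Pdgfra was at least 5.17-fold lower on its brightest probe set, although another probe set gave a log2 ratio of 0.53. The markers Postn, a matrix protein (5128 in knockout against 5536 in wildtype, log2 ratio -0.11), and Dcn, the proteoglycan decorin (-0.05), differed little, and Thy1 stood at 0.18. The brighter probe set of the collagen gene Col1a2, which carries a suffix (r), stood at 0.01 and its other one, without a suffix, at -3.66. Postn, Dcn, Thy1 and Col1a2 were picked with their values in view. The part of these markers in the low Sox11, Twist2 and Zfhx3 ratios was not tested.

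Dermal papilla markers, the mesenchyme that instructs the hair follicle, held 1 lower of 13 on the first type, 5 of them above the floor (Bmp4, 85.4 in knockout against 209.6 in wildtype) and 1 of 5 on the second, 4 of them above it (Wif1, at least 2.94-fold lower); 1.37% and 2.08% of all named genes were lower. Their summed signals were 1837 and 671 in knockout on the first and second types, against 1945 and 1045 in wildtype. For Sox18, 5 of 16 endothelial markers on the first type were above the floor and none of these passed 2-fold. Eng, an endothelial receptor, had a log2 ratio of -0.92 and Sox7 -0.04, and the summed signal was 1378 in knockout against 1851 in wildtype. For Sox9, follicle epithelium markers held 1 lower of 17 on the first type, 12 of them above the floor (Krt35, log2 ratio -1.06, but -0.03 on its other probe set) and none of 5 on the second, where Gata3 stood at 0.46 and Krt15 at 0.25. Their summed signals were 12368 and 31407 in knockout on the first and second types, against 9252 and 25824 in wildtype. Krt17 and Gata3 made up most of the first-type sums and Krt15 most of the second-type sums. On the first type 5 of these markers lay below 0 and 7 above it. Of 15 keratinocyte markers on the first type, 13 were above the floor (Krt5 and Krt14 were not), loricrin was lower and Itga6, Col17a1 and Trp63, genes of the basal layer, were 3.06-fold, 2.68-fold and 2.09-fold higher (0.824% of all named genes were higher). The summed keratinocyte signal, dominated by loricrin and other bright genes, was 114397 in knockout against 189067 in wildtype.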

How the data were processed

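Biotin-labelled total RNA was hybridised to Affymetrix expression arrays. The deposited values are array intensity signals, made by MAS5 according to the submitters' processing notes; its version, scaling target and detection calls were not given in the sources used here. The authors' deposited columns had 2% trimmed mean signals between 500.2 and 500.4.

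Within each type, both arrays were scaled to 1 trimmed mean, signals under the mean of their 40th percentiles were raised to it (the floor), and log2 ratios of knockout over wildtype were computed per probe set (Python 3.11.15, pandas 2.3.3). Control probe sets (66 per type) were dropped once scaling was done. Probe sets that name several genes or none were given no name, which left 10833 and 10581 named. For listed genes the probe set of highest mean log2 signal was used. No test was made, since each type held 1 array per genotype. The members and lists were chosen with earlier results of these data known. Named were all members, up to 6 listed genes per list and type past 2-fold (or the 2 of highest signal), and the 5 nearest genes of each member above the floor on both types. Alternatives covered scaling (as deposited, median of 0, quantile, loess with a span of 0.3 in statsmodels 0.14.6, 9 bacterial spike-in probe sets), the floor (20th or 60th percentile, pseudocount of 1, floor as pseudocount), the rule of size and suffixed probe sets. The steps were tested on simulated data. The number of arrays limits the precision.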

Additional observations from a re-analysis of the deposited data

How the results depend on the processing

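Of the 79 values that the counts, medians and shared signs of the members took under the alternatives, 63 stayed within 1.5 times the reported count or within the scatter between probe sets, and 16 moved. The floor moved most of them. On the first array type the member probe sets at least 2-fold lower numbered 6 with a 20th percentile floor, 1 with a 60th percentile floor and 7 with a pseudocount of 1, against 3. Over all 12422 probe sets the numbers lower were 700, 40 and 1263, against 151. Several member probe sets can be of the same gene. Their median log2 ratio, reported as 0, was -1.70 with the 20th percentile floor, -2.41 with the pseudocount of 1 and -0.79 with the floor as pseudocount. On the second type 2 member probe sets were lower with a 20th percentile floor and 3 with a pseudocount of 1, against 1. Over all 12411 probe sets there, 819 and 1361 were lower, against 228. The median of the member probe sets was -0.56 with that pseudocount. Spike-in scaling, under which the median log2 ratio of all probe sets above the floor was 0.66 and 0.60, left 0 members lower on the second type and made 3 on the first and 2 on the second at least 2-fold higher, against 0. It also turned the split of all calls to 96.6% and 95.9% higher, in place of 41.7% and 44.7%, so directions in the report are relative to the typical probe set. A rule of 1.5-fold gave 1 member probe set higher on the first type, 2 higher and 3 lower on the second, and a rule of 3-fold gave 0 lower on the second. Shares of all probe sets under these rules are not given, so nothing is read from these counts. Of the 171 log2 ratios of single member probe sets under 9 alternatives, 131 moved by less than the scatter between probe sets. That scatter was taken only from probe sets above the floor in both arrays. No called ratio of a member or listed gene changed sign, but this was largely set in advance and nothing is read from it. Floors and pseudocounts keep a sign or bring the ratio to 0, and the spike-in mean log2 ratios, -0.69 and -0.65, are under 2-fold. Called first-type ratios could still vanish: Bmp4 (-1.30) and Krt35 (-1.06) were 0 with a 60th percentile floor. Signals near or under the floor limit what can be said of Twist1, Prrx1 and Sox18. They also limit the first-type ratios of Sox11, Zfhx3 and Twist2, whose knockout signals lay under the floor or just above it. No paired analysis was possible because each array type holds 1 array per genotype and no test was made.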

Other observations

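Probe sets of one gene could disagree widely on the first array type, which bears on members with a single probe set such as Twist2. One Fbln1 probe set, for the matrix protein fibulin 1, read 82.5 in knockout against 15721 in wildtype (log2 ratio -7.57), while the other 3 had log2 ratios of 0.15, -0.22 and 0.08. The outlying probe set carries a suffix (r), and the Twist2 probe set carries none, so the comparison is limited. One Pdgfra probe set read 43.7 in knockout against 401 in wildtype, and another 200.3 in knockout against 139 in wildtype, neither of them with a suffix. Both Fbln1 and Pdgfra were picked after their values were seen.

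On the second type Trps1, a zinc finger factor of hair follicle and cartilage, had log2 ratios of -0.90, -1.22 and, as a bound, -0.51 on its 3 probe sets, so all 3 lay below 0. It was picked after its values were seen. Sox6, a group D partner of Sox9 in cartilage, read 961 in knockout against 606 in wildtype there (log2 ratio 0.67), and lay under the floor in both arrays on the first type.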
